A study of Homo sapiens with 6 samples.

Results

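The genes described are those of the cytosolic ribosomal proteins, the protein components of the ribosome that translates nuclear messages. They were taken as the protein-coding genes whose symbol begins with RPL or RPS and follows the naming pattern of the large-subunit (RPL) or small-subunit (RPS) proteins, paralogue copies included. Of 85 genes in the annotation that fit this pattern, 83 had a transcript in the deposited tables, 51 of the large subunit and 32 of the small one, among 11387 genes in all. RPL3L and RPL10L were not analysed here. All 83 passed the filter on low values, which asked for 1 FPKM or more as the average of the 6 libraries.

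The RNA came from 92.1, an established human ocular melanoma line that was grown in serum-containing medium. The 6 libraries form 2 groups, 3 labelled shALKBH3 with the genotype ALKBH3 knockdown and 3 labelled NC with the genotype WT. The prefix sh is the usual one for a short hairpin RNA, and the labels do not say whether NC cells carry a control hairpin, how many hairpins or clones were used, or whether the 3 samples of a group were separate cultures. The p-values therefore reflect no more than the variation among these 6 samples, and that variation could be technical. The comparison asks how expression differs after knockdown of ALKBH3, a demethylase that repairs alkylated DNA and reverses 1-methyladenosine in RNA.

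ALKBH3 itself was at 3.29, 3.60 and 4.24 FPKM in shALKBH3 replicates 1, 2 and 3, against 10.5, 10.6 and 9.19 FPKM in NC replicates 1, 2 and 3. Its log2 difference was -1.24 (SE 0.118, limma adjusted p = 0.0079), so the targeted gene fell in the libraries labelled as its knockdown. Values are FPKM, which divide fragments by the length of the transcript and by the size of the library, summed over the listed transcripts of a gene. Read counts were not used here, so the sequencing depth is unknown and no counting interval is given. The listed FPKM summed to between 326408 and 333506 in shALKBH3 and between 340522 and 360889 in NC. Of 10 melanocyte lineage markers, MITF, RAB38 and GPR143 were measured and the other 7, PMEL, MLANA and TYR among them, were not analysed here. MITF averaged 9.36 FPKM over the 6 libraries, GPR143 12.5 and RAB38 12.8. Of 6 leukocyte markers, CSF1R alone was measured, below 1 FPKM on average. Of 6 epithelial markers, KRT8 (254 FPKM) and KRT18 (238 FPKM) were measured, above the melanocyte markers. Of 7 fibroblast and endothelial markers, COL1A1 (21.6 FPKM) and COL3A1 (1.25 FPKM) were measured. The identity of the cells was not tested with these markers. NC replicate 2 lay closest to the shALKBH3 libraries in ribosomal protein RNA, as described below with the library sums.

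Each ribosome holds 1 copy of most ribosomal proteins, so cells make them in matched amounts, and proteins left over are degraded. Their messages are among the most abundant of a growing cell. Most of them start with a C followed by an unbroken run of pyrimidines, the 5′ terminal oligopyrimidine or TOP motif, through which the mTOR kinase and the RNA-binding protein LARP1 control their translation and stability together. In melanoma, as in other tumours, ribosome production is driven by growth signalling.

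The start sites of the members that the results turn on are shown here because this motif is the feature most ribosomal protein messages share, and because the paralogue copies differ in it. Each line gives 20 bases before and 20 bases from the annotated start of transcription of RefSeq (build GRCh38.p14), read 5′ to 3′ on the coding strand. Capitals mark the pyrimidine run that begins at the first transcribed base, or, where there is no such run of at least 5 bases beginning with C, that first base alone. The first 5 lines are the member that passed the test, 2 of the members with the largest differences, the p53-linked RPL11, and RPS19.
RPLP1 (chr15:69452798-69452837, plus strand): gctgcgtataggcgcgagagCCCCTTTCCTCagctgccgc
RPS10 (chr6:34426050-34426089, minus strand): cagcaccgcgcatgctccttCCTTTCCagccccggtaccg
RPS21 (chr20:62387083-62387122, plus strand): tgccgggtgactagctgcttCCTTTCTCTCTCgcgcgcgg
RPL11 (chr1:23691786-23691825, plus strand): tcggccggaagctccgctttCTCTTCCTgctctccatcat
RPS19 (chr19:41860235-41860274, plus strand): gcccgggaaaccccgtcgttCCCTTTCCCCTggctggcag
The next 8 lines set a main copy and its paralogue copy beside each other.
RPL22 (chr1:6199576-6199615, minus strand): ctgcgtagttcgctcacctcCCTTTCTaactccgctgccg
RPL22L1 (chr3:170870176-170870215, minus strand): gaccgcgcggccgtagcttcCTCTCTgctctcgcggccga
RPL26 (chr17:8383174-8383213, minus strand): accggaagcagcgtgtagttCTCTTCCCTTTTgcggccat
RPL26L1 (chr5:172958709-172958748, plus strand): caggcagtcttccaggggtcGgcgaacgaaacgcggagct
RPL36A (chrX:101390991-101391030, plus strand): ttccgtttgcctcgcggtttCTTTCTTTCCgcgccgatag
RPL36AL (chr14:49620607-49620646, minus strand): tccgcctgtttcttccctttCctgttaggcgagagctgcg
RPS27 (chr1:153990742-153990781, plus strand): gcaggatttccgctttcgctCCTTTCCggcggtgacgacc
RPS27L (chr15:63157458-63157497, minus strand): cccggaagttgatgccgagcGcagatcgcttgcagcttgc

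A RefSeq start sequence was matched for 67 of the 83 members, and 47 of these (70.1%) began with C and continued in C or T for at least 5 bases in all. The same was true of 1404 of 27305 promoters of all genes (5.14%), and of 676 of 8436 tested genes with a promoter (8.01%). This was the single pattern searched, on the coding strand and at the start base alone. Among the members other than paralogue copies 46 of 62 began so (74.2%), with 29 of 42 in the large subunit and 18 of 25 in the small subunit when copies are counted in. Of the 5 paralogue copies with a matched start, RPL22L1 began so and RPL7L1, RPL26L1, RPL36AL and RPS27L did not. RPL36AL has a C at its first base, followed by a run shorter than 5 bases. A match in these letters is a description of the annotated start, not a measurement of where transcription began in 92.1 cells.

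Ribosomal protein RNA was high in these cells. Levels per gene, as the mean FPKM over the 6 libraries, ran from 20.01 for RPL39L to 1891 for RPS24, with a median of 508 FPKM, against a median of 8.62 FPKM over the 10475 genes tested. Of the 86 genes of the whole table with at least 500 FPKM, 42 were members. RPS24 was followed by RPL12, RPL41, RPL13A and RPL11. The lowest levels were those of 5 paralogue copies, RPL39L, RPL7L1, RPS27L, RPL26L1 and RPL22L1, together with RPL37 and RPL4. The median level was 461 FPKM for large-subunit genes and 623 FPKM for small-subunit genes.

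Ribosomal protein genes were lower in shALKBH3 by a small and similar amount. The log2 difference was negative in 82 of 83 members, with a median of -0.31, a lower quartile of -0.37 and an upper quartile of -0.25. Over all 10475 tested genes 51.3% had a negative difference and the median was -0.0096. RPLP1 fell, and it was the 1 member with a limma adjusted p under 0.05, where 0.477% of all tested genes were called lower, 1.28% higher and 1.76% in either direction. No member was called higher. At an unadjusted p under 0.05, 53 members were lower and 0 higher, against 8.15% of all genes lower. The number of members called was 0 with libraries set to equal totals, 0 with the replicate number as a block and 0 or 1 when 1 library was left out. With array weights, which give libraries unequal weight in the fit, it was 14, where 1.53% of all genes were called lower. In 54 members all 3 shALKBH3 libraries lay below all 3 NC libraries, which held for 12.0% of all genes, and in 0 members did all 3 lie above, against 12.9% of all genes. In the other 29 the groups overlapped. Without NC replicate 2 all 83 differences were negative, the median was -0.39, and RPS10 in place of RPLP1 was called lower. The members were proposed with earlier results of these libraries known, so their counts describe them and are not an independent test. In bulk RNA, fewer cells of a type and less RNA per cell cannot be told apart.

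**Figure D1:**
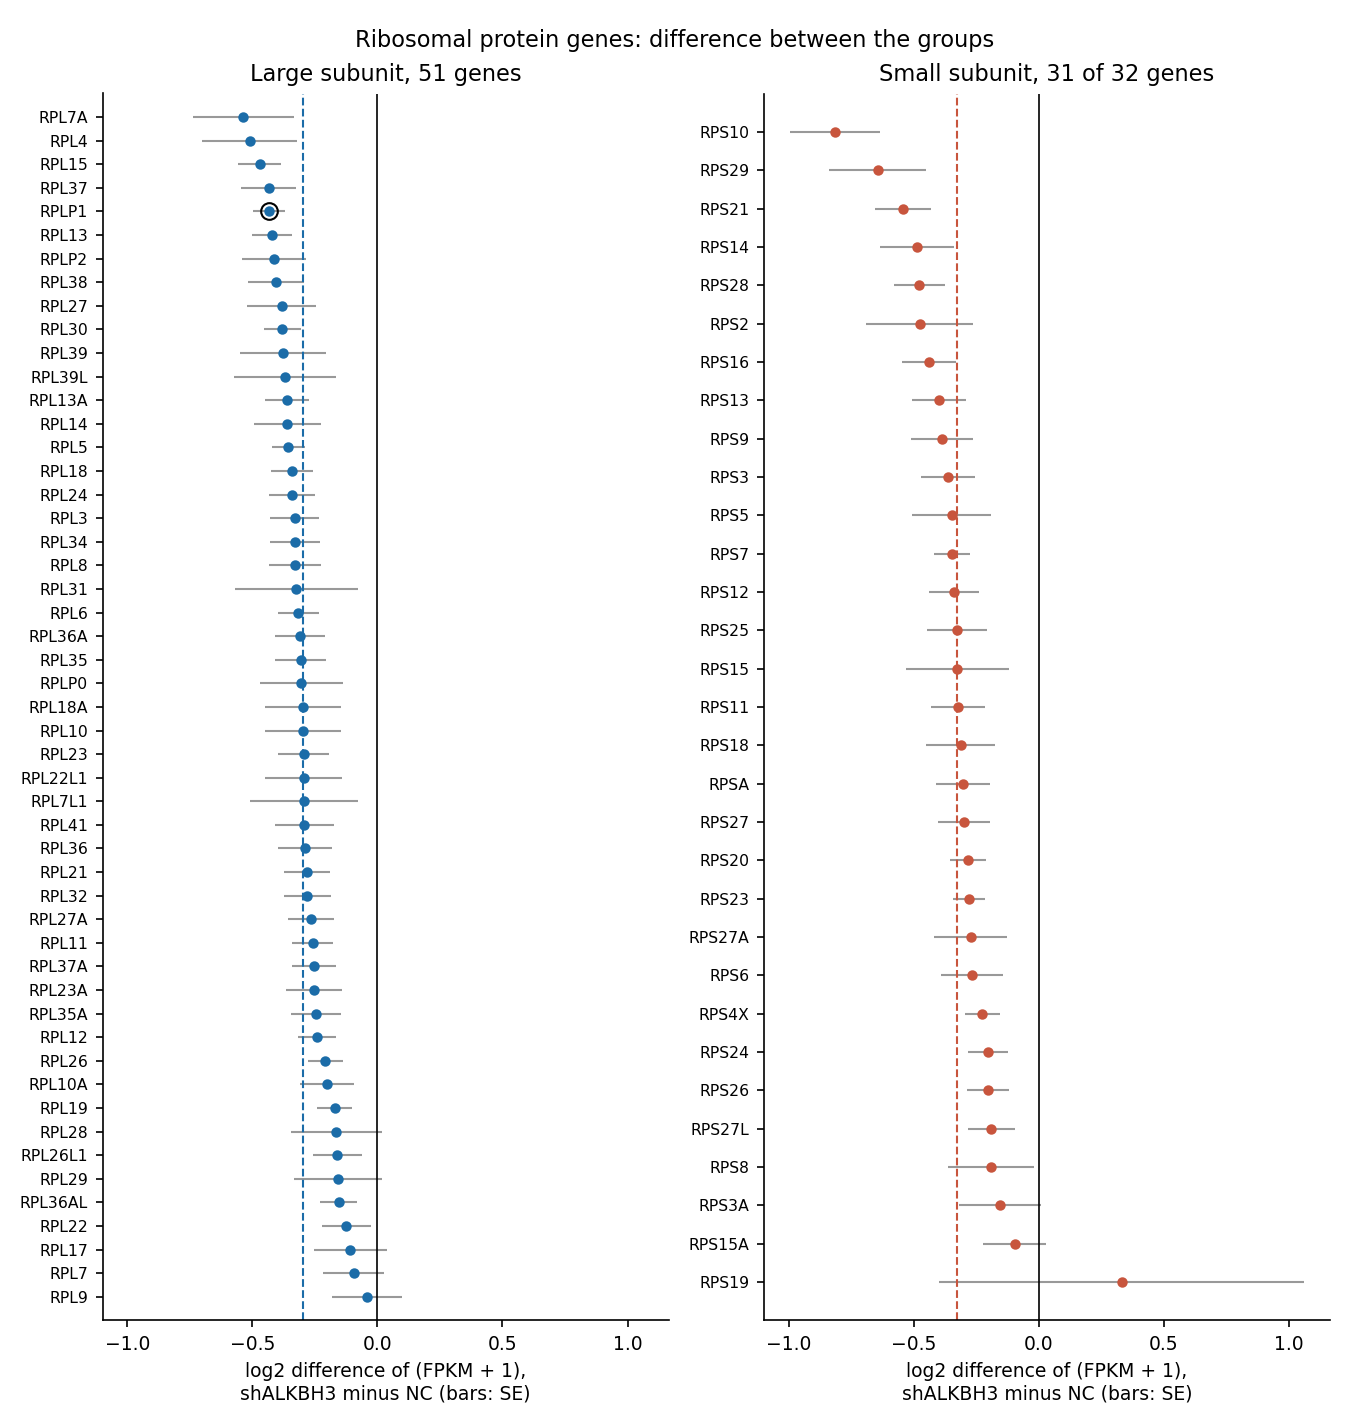
Log2 difference of FPKM + 1, shALKBH3 minus NC, for each large-subunit gene (left) and for 31 of 32 small-subunit genes (right), with bars for the standard error of the limma fit. The dashed line is the median over all genes of the subunit (-0.30 large, -0.32 small), the black ring marks RPLP1, and RPS19 is the 1 member to the right of 0.

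Summed over the 83 members, FPKM came to 44389, 42218 and 45068 in shALKBH3 replicates 1, 2 and 3, against 56856, 48050 and 58276 in NC replicates 1, 2 and 3. The mean was 43892 ± 1489 in shALKBH3 and 54394 ± 5540 in NC (SD, n = 3 each), 19.3% lower. All 3 shALKBH3 sums lay below all 3 NC sums, and NC replicate 2 was nearer to the shALKBH3 libraries than to the other NC libraries. As a share of the listed FPKM the members made up 13.3%, 12.9% and 13.5% in shALKBH3 replicates 1, 2 and 3, against 15.8%, 14.1% and 16.1% in NC replicates 1, 2 and 3. The log2 ratio of the mean sums was -0.31, and it was between -0.39 and -0.26 when 1 library was left out, the larger size being that without NC replicate 2. Mitochondrially encoded RNA, which shares the same total, made up 14.02% to 15.2% of the listed FPKM in shALKBH3 and 14.7% to 17.3% in NC, and its part in the shares was not tested. With that RNA left out the member share was still lower in all 3 shALKBH3 libraries, 15.5% ± 0.383 against 18.3% ± 1.34 in NC (SD, n = 3 each).

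The difference was of like size in the 2 subunits. Large-subunit genes summed to 26006, 24238 and 25802 FPKM in shALKBH3 replicates 1, 2 and 3, against 32355, 27986 and 32746 FPKM in NC replicates 1, 2 and 3, a mean 18.3% lower. Small-subunit genes summed to 18383, 17980 and 19266 FPKM in shALKBH3, against 24501, 20063 and 25530 FPKM in NC, a mean 20.6% lower. In both subunits every shALKBH3 sum lay below every NC sum. The ratio of large to small sums was 1.41, 1.35 and 1.34 in shALKBH3, against 1.32, 1.39 and 1.28 in NC, so the groups overlapped. Without RPS19, whose level depends on how its fragments were divided among transcripts, the ratio was 1.42 ± 0.0154 in shALKBH3 and 1.37 ± 0.0601 in NC (SD, n = 3 each), and the groups again overlapped. The median log2 difference was -0.30 for the 51 large-subunit genes and -0.32 for the 32 small-subunit genes. All 51 large-subunit genes and 31 of 32 small-subunit genes were negative, and all 3 shALKBH3 libraries lay below all 3 NC libraries in 33 and 21 of them, against 12.0% of all genes. With the length trend removed, as described further on, this held for 16 large-subunit and 11 small-subunit genes.

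**Figure D2:**
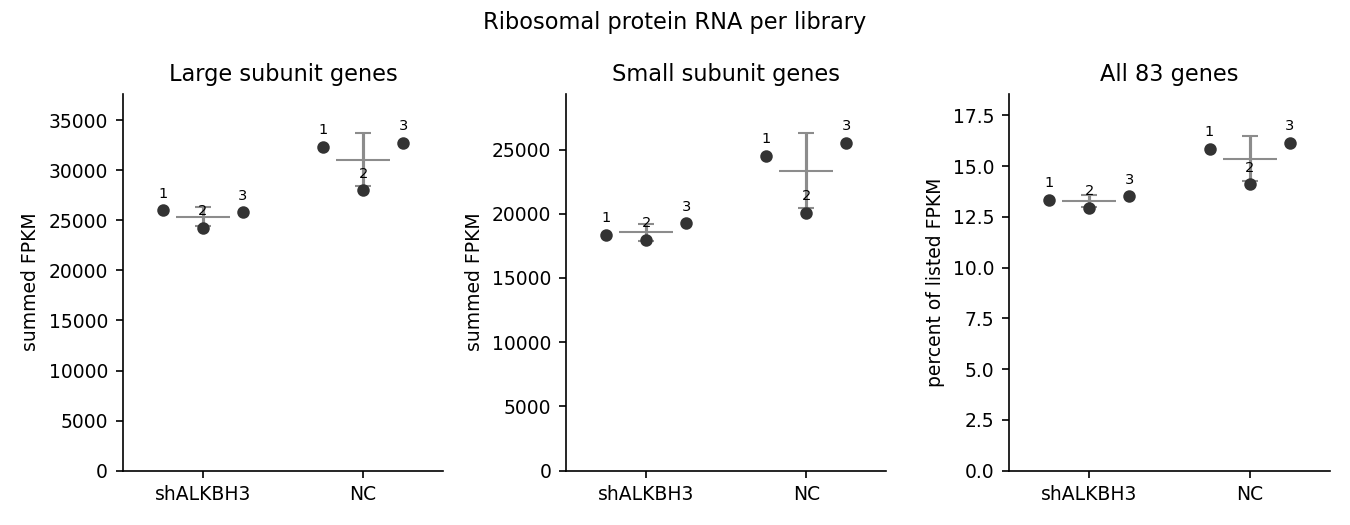
Summed FPKM of the large-subunit genes (left) and small-subunit genes (middle), and the share of the listed FPKM held by all 83 genes (right). Points are libraries with their replicate number, and grey bars are the mean and SD of each group. In each panel the 3 shALKBH3 libraries lie below the 3 NC libraries, and NC replicate 2 is the lowest of its group.

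Among large-subunit proteins, RPLP0, RPLP1 and RPLP2 form the P stalk, the flexible arm that recruits the GTPase translation factors. RPLP1 (ENSG00000137818, chromosome 15) was at 317, 303 and 311 FPKM in shALKBH3 replicates 1, 2 and 3, against 404, 413 and 443 FPKM in NC replicates 1, 2 and 3. The 3 shALKBH3 values lay close together below all 3 NC values. Its mean was 311 ± 6.999 FPKM in shALKBH3 and 420.4 ± 20.5 FPKM in NC (SD, n = 3 each), 26.1% lower, and the log2 difference was -0.43 (SE 0.0644, limma adjusted p = 0.037). The call was lost when any 1 of the 6 libraries was left out (adjusted p from 0.075 to 0.16), with the length trend taken off (0.064), with quantile normalization (0.068) and with libraries set to equal totals (0.060). RPLP2, which pairs with RPLP1, was at 407, 323 and 349 FPKM in shALKBH3 replicates 1, 2 and 3, against 469.7, 422 and 546 FPKM in NC replicates 1, 2 and 3. Its groups did not overlap, with a log2 difference of -0.41 (adjusted p = 0.20). RPLP0, the base that anchors both pairs to the ribosome, was at 316, 204 and 289 FPKM in shALKBH3 replicates 1, 2 and 3, against 319.5, 321 and 343 FPKM in NC replicates 1, 2 and 3. Its shALKBH3 replicate 1 lay just under the lowest NC library, and the log2 difference was -0.30 (adjusted p = 0.40).

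RPL5 and RPL11 bind 5S ribosomal RNA, and the particle they form with it also binds MDM2 and so stabilises p53 when ribosome assembly fails. RPL5 was at 809, 834 and 851 FPKM in shALKBH3 replicates 1, 2 and 3, against 1108, 998 and 1089 FPKM in NC replicates 1, 2 and 3. The groups did not overlap, and the log2 difference was -0.36 (adjusted p = 0.071). RPL11 was at 1237, 1155 and 1224 FPKM in shALKBH3 replicates 1, 2 and 3, against 1533, 1301 and 1504 FPKM in NC replicates 1, 2 and 3. Again all 3 shALKBH3 libraries were lower, with a log2 difference of -0.26 (adjusted p = 0.21). Neither passed the test. Under quantile normalization RPL11 had a log2 difference of 0.017.

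RPL17, RPL19, RPL22, RPL23A, RPL26, RPL31, RPL35 and RPL39 lie around the exit of the tunnel through which the new protein chain leaves. All 8 had negative log2 differences, 0 passed the test, and their median was -0.23, against -0.30 for all large-subunit members. In 4 of the 8, RPL19, RPL23A, RPL26 and RPL35, all 3 shALKBH3 libraries lay below all 3 NC libraries, against 12.0% of all genes. With the length trend removed this held for 0 of the 8, and their median was -0.056. RPL39, a very short protein that lines the tunnel, was at 846, 695 and 819.9 FPKM in shALKBH3, against 1168, 789 and 1149 FPKM in NC. The groups overlapped, because NC replicate 2 lay below shALKBH3 replicates 1 and 3 (log2 -0.38, adjusted p = 0.33). RPL17 was at 918, 804 and 874 FPKM in shALKBH3, against 1108, 755 and 965 FPKM in NC, where NC replicate 2 was the lowest of the 6 libraries (log2 -0.11, adjusted p = 0.73). With the length trend removed the RPL17 difference was 0.10, the other way.

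Of the other large-subunit genes, RPL7A had the most negative difference. RPL7A, whose gene also hosts small nucleolar RNAs in its introns, was at 329, 196 and 207 FPKM in shALKBH3 replicates 1, 2 and 3, against 332, 335 and 368 FPKM in NC replicates 1, 2 and 3. In shALKBH3 replicate 1 the level was close to that of NC, and replicates 2 and 3 were well below it. The log2 difference was -0.54 (SE 0.201, adjusted p = 0.26), and without shALKBH3 replicate 1 it was -0.77 (adjusted p = 0.034). RPL15, another protein of the large-subunit core, had the second smallest adjusted p of the members. Its values were 395, 393 and 395 FPKM in shALKBH3, against 497, 541 and 607 FPKM in NC, and its log2 difference was -0.47 (adjusted p = 0.065). RPL15 was chosen for mention after its values were seen, because it passed the test once the length trend was taken off (-0.41, adjusted p = 0.049) or when fragments were not divided by length (-0.38, adjusted p = 0.042).

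The large-subunit genes nearest to 0 were RPL7 and RPL9. RPL7 was at 692, 903 and 887 FPKM in shALKBH3, against 938, 815 and 884 FPKM in NC, and RPL9 at 533, 439 and 487 FPKM in shALKBH3, against 436, 471 and 604 FPKM in NC. In both the groups overlapped, with log2 differences of -0.095 for RPL7 (adjusted p = 0.71) and -0.041 for RPL9 (adjusted p = 0.90). Both differences turned positive once the length trend was removed (0.057 for RPL7 and 0.16 for RPL9). These 2 genes, RPL17, RPS15A and RPS19 made up the 5 highest differences of the 83.

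In the small subunit the widest gap was that of RPS10. RPS10, a protein at the mRNA entry side of the subunit head that is ubiquitinated when ribosomes collide, was at 442, 430.5 and 452 FPKM in shALKBH3 replicates 1, 2 and 3, against 823, 587 and 972 FPKM in NC replicates 1, 2 and 3. The 3 shALKBH3 libraries lay within a narrow band below the lowest NC library, while the NC libraries differed widely. The mean of RPS10 (ENSG00000124614, chromosome 6) was 441 ± 10.8 FPKM in shALKBH3 and 794 ± 194 FPKM in NC (SD, n = 3 each), 44.4% lower. The log2 difference was -0.82 (SE 0.18, adjusted p = 0.10), and without NC replicate 2 it was -1.02 (adjusted p = 0.021). Nearly all of this came from 1 transcript of 644 nucleotides, and the read-through gene RPS10-NUDT3, counted apart, was at 3.01, 2.84 and 3.76 FPKM in shALKBH3, against 2.18, 3.45 and 2.80 FPKM in NC. Fragments that fit both could have been divided between them, so the RPS10 level is uncertain to that extent.

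RPS29 and RPS21 were also among the 5 members with the most negative differences. RPS29, a small zinc-binding protein of the subunit head, was at 316, 254 and 314 FPKM in shALKBH3 replicates 1, 2 and 3, against 521, 344 and 538 FPKM in NC replicates 1, 2 and 3. Its NC replicate 2 stood near the shALKBH3 libraries, and the log2 difference was -0.64 (adjusted p = 0.19). RPS21, which sits beside RPSA on the outer face of the subunit, was at 499.7, 436 and 506 FPKM in shALKBH3 replicates 1, 2 and 3, against 702, 616 and 788 FPKM in NC replicates 1, 2 and 3. The groups were apart, with a log2 difference of -0.54 (SE 0.112, adjusted p = 0.088). RPS21 passed under quantile normalization (-0.38, adjusted p = 0.049) and with array weights (-0.51, adjusted p = 0.035).

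At the other end, RPS15A and RPS19 had the highest differences of the small subunit. RPS15A was at 376, 301 and 345 FPKM in shALKBH3, against 369.8, 316 and 408 FPKM in NC, with overlapping groups and a log2 difference of -0.096 (adjusted p = 0.72). The share of its FPKM held by its most abundant transcript differed by 25.3 percentage points between libraries. As FPM, fragments not divided by transcript length, its log2 difference was -0.25 (adjusted p = 0.22) with all 3 shALKBH3 libraries below all 3 NC libraries, with its most abundant transcript alone it was -0.32 (adjusted p = 0.47), and with the length trend removed it was 0.14, the other way. RPS19 (ENSG00000105372, chromosome 19), the gene most often mutated in Diamond-Blackfan anaemia, was the 1 member with a positive difference. Its FPKM sum was 261, 958 and 896 FPKM in shALKBH3 replicates 1, 2 and 3, against 1216, 272 and 339 FPKM in NC replicates 1, 2 and 3. Each group held both high and low libraries, and the log2 difference was 0.33 (SE 0.729, adjusted p = 0.84).

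The RPS19 values turned on which transcript the fragments were assigned to. In shALKBH3 replicate 1, NC replicate 2 and NC replicate 3 most fragments went to a transcript of 2359 nucleotides, ENST00000598742. In shALKBH3 replicates 2 and 3 and NC replicate 1 most went to the transcripts of 500 and 526 nucleotides, ENST00000221975 and ENST00000593863. The same fragments give a lower FPKM on a longer transcript. FPKM was therefore also multiplied by the annotated length of each transcript in kilobases and summed again, which gives fragments per library size with no division by length (FPM). RPS19 had FPM values of 469, 597 and 605 in shALKBH3 replicates 1, 2 and 3, against 800.2, 566 and 748 in NC replicates 1, 2 and 3. On that scale the groups still overlapped, because NC replicate 2 lay below shALKBH3 replicates 2 and 3, and the log2 difference was -0.33 (adjusted p = 0.34), close to that of the other members. The split between transcripts followed neither group.

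**Figure D3:**
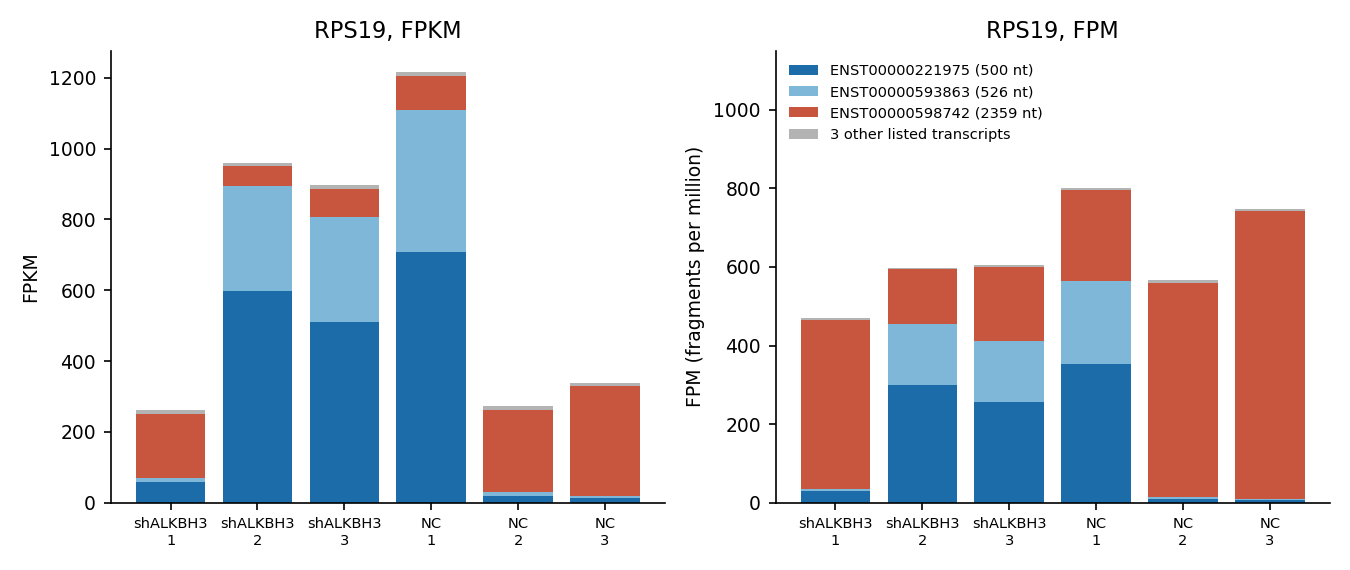
RPS19 in each library, by listed transcript, as FPKM (left) and as FPM (right), with shALKBH3 libraries left of NC libraries. The red bars are the transcript of 2359 nucleotides. It holds most fragments in shALKBH3 replicate 1, NC replicate 2 and NC replicate 3, and the gene totals differ less between libraries on the right.

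In other members too the division among transcripts varied between libraries. The 83 members had 391 listed transcripts, 386 of them protein-coding and 5 with a retained intron, and 7 members had a single one. In 15 members the share of the gene's FPKM held by its most abundant transcript varied by over 20 percentage points between libraries, RPS3A, RPL39L and RPS19 varying most. With FPM in place of FPKM, a comparison added after the data were seen, all 83 members had negative log2 differences, with a median of -0.32, against 52.0% of all genes. All 3 shALKBH3 libraries lay below all 3 NC libraries in 59 members on that scale, against 12.4% of all genes. RPLP1 and RPL15 were called lower on it, where the share of all genes was 0.468%.

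Some ribosomal protein genes have a second, related copy elsewhere in the genome. The product of some copies can take the place of the main one, and RPL7L1 is counted here by its name. Of the copies, 6 were measured, all 6 had negative log2 differences with a median of -0.24, and 0 passed the test. The 77 other members had a median of -0.31. In 1 copy, RPL36AL, all 3 shALKBH3 libraries lay below all 3 NC libraries. Near-identical copies and pseudogenes elsewhere can take each other's reads, so values of single copies are uncertain.

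RPL22L1 was at 113, 88.8 and 109 FPKM in shALKBH3, against 139, 104 and 140.4 FPKM in NC, beside RPL22 at 531, 455 and 448 FPKM in shALKBH3, against 565, 484 and 513 FPKM in NC. The copy was well below RPL22 in FPKM, and its difference of -0.30 on the log2 scale was larger than that of RPL22 (-0.12), with overlapping groups for both genes. With the most abundant transcript alone the order turned, at -0.27 for RPL22L1 and -0.31 for RPL22, and as FPM the log2 differences were -0.34 for RPL22L1 and -0.22 for RPL22, whose groups were then apart. RPL26L1 was at 51.0, 44.7 and 45.8 FPKM in shALKBH3, against 51.3, 48.9 and 58.4 FPKM in NC, beside RPL26 at 640.2, 617 and 644 FPKM in shALKBH3, against 772, 745 and 682 FPKM in NC. Their log2 differences were -0.16 for RPL26L1 and -0.21 for RPL26, and the groups were apart for RPL26. RPL36AL was at 282, 286 and 281 FPKM in shALKBH3, against 311, 294 and 341 FPKM in NC, beside RPL36A at 404, 407 and 366 FPKM in shALKBH3, against 517, 428 and 519.9 FPKM in NC. Here the copy had the smaller log2 difference (-0.15 for RPL36AL and -0.31 for RPL36A), and neither passed the test.

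RPS27L, a p53-induced copy, was at 32.0, 28.4 and 29.6 FPKM in shALKBH3, against 34.4, 31.4 and 37.3 FPKM in NC, beside RPS27 at 1055, 948 and 1077 FPKM in shALKBH3, against 1344, 1098 and 1359 FPKM in NC. The log2 differences were -0.19 for RPS27L and -0.30 for RPS27, whose groups did not overlap. RPL39L, best known from the testis, was at 22.0, 13.6 and 16.7 FPKM in shALKBH3, against 19.1, 21.4 and 27.4 FPKM in NC, far below RPL39, and its log2 difference of -0.37 was near that of RPL39 (-0.38). RPL7L1, whose yeast relative Rlp7 works in ribosome assembly, was at 19.0, 19.1 and 28.9 FPKM in shALKBH3, against 30.3, 21.3 and 31.0 FPKM in NC, with a log2 difference of -0.29 (adjusted p = 0.51). The difference between a copy and its main gene was not tested for any pair.

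Transcript length was examined because FPKM differences followed it over the whole table. The member transcripts are short, with a median of 756 nucleotides for the most abundant one, against 2969 nucleotides over all tested genes. Across all 10475 genes Spearman's rho between length and log2 difference was 0.34, shorter transcripts being lower in shALKBH3. Genes share the same libraries and are not independent, so rho is a description. The mean length of the RNA, weighted by FPKM, was 2100, 2149 and 2115 nucleotides in shALKBH3 replicates 1, 2 and 3, against 1937, 2058 and 1927 nucleotides in NC replicates 1, 2 and 3. The groups did not overlap in this measure, which includes the members themselves. In a second measure, rho between length and each gene's deviation from its 6-library mean, they did overlap. It was 0.031, 0.31 and 0.27 in shALKBH3 replicates 1, 2 and 3, against -0.18, 0.071 and -0.40 in NC replicates 1, 2 and 3. Length thus differed in part between the groups, and its part in the member differences cannot be told apart from that of the knockdown.

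Within the members the difference did not follow length. Spearman's rho between length and log2 difference was 0.039 over the 83 members, -0.052 over the large-subunit genes and 0.11 over the small-subunit genes. The 33 members with transcripts under 700 nucleotides had a median log2 difference of -0.31, the 29 between 705 and 1197 nucleotides -0.32, and the 21 between 1203 and 7686 nucleotides -0.29. Members whose most abundant listed transcript is long, such as RPL37, RPL4, RPL27A and RPS23, were thus in the same range as RPS29 and RPL41, where it is short. These are annotated lengths, and the length of the RNA in these cells was not measured. RPL37, for example, is classed by a transcript of 7686 nucleotides and also has a listed one of 553 nucleotides. On the FPM scale the medians of the 3 classes were -0.32, -0.31 and -0.32.

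**Figure D4:**
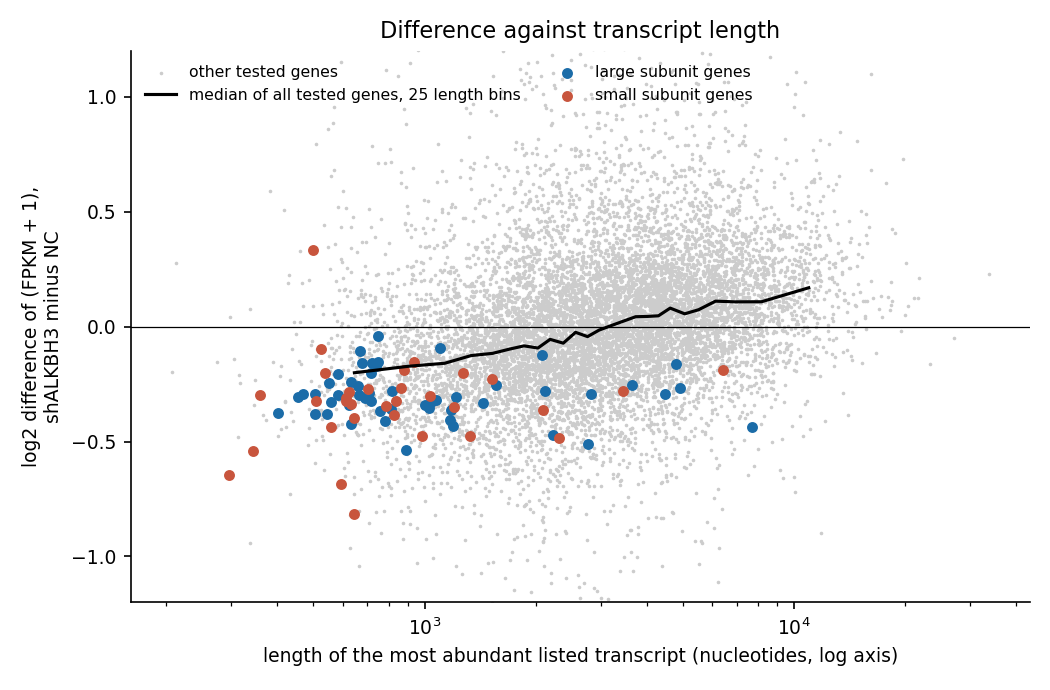
Log2 difference of FPKM + 1, shALKBH3 minus NC, against the length of the most abundant listed transcript on a log axis. Grey points are other tested genes (points beyond the vertical axis are not drawn), and coloured points are large- and small-subunit genes. The black line is the median of all tested genes, members included, in bins of length. The black line climbs with length while the members stay near -0.31 at all lengths.

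Taking the lowess trend with length, fitted over all genes, off each library left a smaller difference. The member median was then -0.14, and -0.14 in the large subunit and -0.14 in the small subunit taken singly. The difference stayed negative in 70 of 83 members, against 50.5% of all genes. All 3 shALKBH3 libraries lay below all 3 NC libraries in 27 members and above them in 1, against 11.7% of all genes below. At an unadjusted p under 0.05, 22 members were lower, against 7.20% of all genes. RPL15 was the 1 member called lower (adjusted p = 0.049), against 0.372% of all genes, and RPS10 still had the most negative value (-0.60, adjusted p = 0.094).

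What was left after the correction depended on length. The trend of all genes climbed with length (rho 0.34), while the member differences did not follow length (rho 0.039). The dependence therefore follows from the correction and is not a separate result about the members. The median was -0.088 in members under 700 nucleotides, -0.14 in those from 705 to 1197 and -0.28 in those of 1203 or more, and rho with length was -0.50 over the 83 members. The deviation of the member median from the 6-library mean was -0.11, -0.24 and -0.12 in shALKBH3 replicates 1, 2 and 3, against 0.21, -0.019 and 0.26 in NC replicates 1, 2 and 3. After the correction it was -0.11, -0.084 and -0.02 in shALKBH3, against 0.14, -0.0017 and 0.055 in NC. All 3 shALKBH3 libraries lay below all 3 NC libraries in both measures, with NC replicate 2 closest to them. The trend value taken off at the members was largest in NC replicate 3, at 0.24, and most negative in shALKBH3 replicate 2, at -0.17. The groups overlapped in this trend value.

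**Figure D5:**
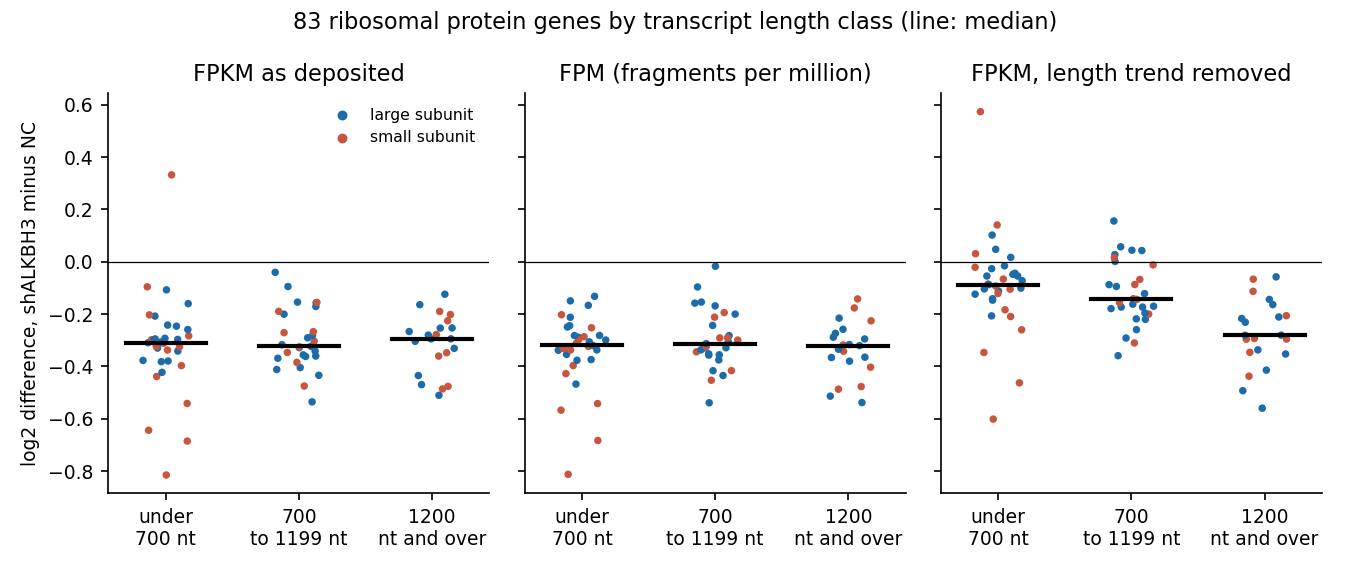
Log2 differences of the 83 members, shALKBH3 minus NC, in 3 classes of transcript length, as FPKM (left), as FPM (middle) and as FPKM with the length trend of all genes removed (right). Black lines are medians. They lie between -0.29 and -0.32 in the left and middle panels, and run from -0.088 in the shortest class to -0.28 in the longest class in the right panel.

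GC content of the members was close to that of all genes, with medians of 48.9% and 47.8%. Across the members Spearman's rho with the log2 difference was -0.25 for GC content and 0.051 for mean FPKM, each over 83 genes that share the same 6 libraries. For GC content it was -0.11 over the 51 large-subunit genes, -0.46 over the 32 small-subunit genes and -0.31 over all 10475 genes. Members with the pyrimidine start had a median log2 difference of -0.31 (47 genes) and members with another annotated start -0.29 (20 genes). On the length-corrected scale the medians were -0.12 with the pyrimidine start and -0.15 without it.

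Of the 19 members that are mutated in Diamond-Blackfan anaemia, an inherited failure of red cell production, 0 passed the test and 18 were negative, with a median of -0.32. At an unadjusted p under 0.05, 16 were lower, and in 15 of the 19 all 3 shALKBH3 libraries lay below all 3 NC libraries, against 8.15% and 12.0% of all genes. With the length trend removed the median was -0.12, 5 were lower at an unadjusted p under 0.05 and the groups were apart in this direction in 7. RPS10, RPS29, RPS28 and RPL15 were among the 5 most negative of them, and RPS15A and RPS19 the 2 highest. Over all 83 members the corresponding median was -0.31.

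The ribosomal proteins FAU and RACK1 fall outside the naming pattern. FAU, whose fusion product includes RPS30, was at 130.1, 104 and 105 FPKM in shALKBH3, against 142, 133 and 181 FPKM in NC. RACK1, a scaffold protein on the small subunit, was at 134, 158 and 149 FPKM in shALKBH3, against 188, 227 and 212 FPKM in NC. The groups did not overlap in either gene, with log2 differences of -0.42 for FAU and -0.50 for RACK1 (adjusted p = 0.24 and 0.082), and 0 passed the test.

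Messages of translation factors and RNA-binding proteins that are known as TOP messages were set beside the members. Of 19 tested genes of this list, which includes FAU and RACK1, 1 fell, 0 rose and 18 did not pass, with a median of -0.31 and 18 negative differences. The log2 differences ran from -0.71 for EEF1B2 to 0.21 for EIF3H, both named after their values were seen. NPM1, a nucleolar chaperone of ribosome assembly, was at 647, 707 and 665 FPKM in shALKBH3 replicates 1, 2 and 3, against 865, 882 and 869 FPKM in NC replicates 1, 2 and 3. The groups were far apart relative to their spread, and the log2 difference was -0.37 (SE 0.0611, adjusted p = 0.047). The call was lost when any 1 of the 6 libraries was left out (adjusted p from 0.087 to 0.20). These messages are longer than those of the members, with a median of 1842 nucleotides, and with the length trend removed their median was -0.27. Of their RefSeq start sequences 11 of 12 had the pyrimidine start.

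Genes that act on ribosomal proteins or on their messages had medians nearer to 0 before any length correction. Their transcripts were longer, with medians of 3469 nucleotides for chaperones and quality-control factors and 4674 for regulators, against 756 for the members. With the length trend removed the medians were -0.027 and -0.096, against -0.14 for the members. Of 10 tested chaperones and quality-control factors 0 passed, with a median of -0.11. BCCIP, a chaperone of RPL23, was at 58.5, 60.4 and 57.6 FPKM in shALKBH3, against 63.8, 70.2 and 65.3 FPKM in NC, with groups that did not overlap (log2 -0.17, adjusted p = 0.29). NAP1L1, a histone chaperone whose yeast relative also handles ribosomal proteins, was at 317, 446 and 358 FPKM in shALKBH3, against 529, 391 and 586 FPKM in NC, with overlapping groups (log2 -0.42, adjusted p = 0.33). NAP1L1 is also on the list of TOP messages, so that list and the chaperone list are not separate. Of 18 tested regulators of TOP messages and ribosomal protein genes 1 fell, 0 rose and 17 did not pass, with a median of -0.020. MLST8, a subunit of the mTOR complexes, was at 3.33, 3.09 and 3.09 FPKM in shALKBH3, against 5.65, 5.23 and 5.14 FPKM in NC. The groups did not overlap, and its log2 difference was -0.60 (adjusted p = 0.046). The call was lost when any 1 of the 6 libraries was left out (adjusted p from 0.091 to 0.18), and on FPM (0.092). It was also lost with the length trend removed (0.086) and with the most abundant transcript alone (0.43). SP1, a transcription factor of many housekeeping promoters, was at 17.5, 18.2 and 17.7 FPKM in shALKBH3, against 15.0, 16.2 and 14.1 FPKM in NC (log2 0.22, adjusted p = 0.26).

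Of 7 tested genes that sense or relay failed ribosome assembly, NPM1, which this list shares with the TOP messages, was the 1 that passed. The list median was -0.14, and it was also -0.14 with the length trend removed, where the member median was -0.14 too. CDKN1A, the p53 target that encodes the cell-cycle inhibitor p21, was at 93.0, 66.9 and 74.6 FPKM in shALKBH3, against 85.4, 87.7 and 98.3 FPKM in NC. The groups overlapped, and the log2 difference was -0.22 (adjusted p = 0.45).

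The proteins of the mitochondrial ribosome are encoded by a separate set of nuclear genes and were set beside the cytosolic ones. Of 78 tested mitochondrial ribosomal protein genes 1 fell, 0 rose and 77 did not pass. The 1 that fell was MRPL16, with a log2 difference of -0.45, named after its value was seen. Over all tested genes 0.477% were called lower. In the mitochondrial set 0 genes were called lower with the length trend removed, 0 as FPM and 0 with equal totals, and 1 with quantile normalization. Differences were negative in 70 of them, and the median was -0.24, against -0.31 for the cytosolic members. With the length trend removed both medians were -0.14, and with quantile normalization the order turned, at -0.24 for the mitochondrial set and -0.15 for the cytosolic members. Quantile normalization gives every library the same set of values, so it reduces a shift shared by the most abundant genes. The cytosolic members are 42 of the 86 genes with at least 500 FPKM. The order of the medians thus depended on the scaling, and the cause of the turned order was not tested. The mitochondrial set has longer transcripts, with a median of 1291 nucleotides, and 6 of its 69 matched starts were pyrimidine starts (8.70%), against 70.1% of the cytosolic members. The difference between the sets was not tested.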

How the data were processed

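The authors deposited 1 table per library with FPKM for each of 28900 transcripts, per the file headers. The submitters' processing notes name hg19, HTSeq 0.6.0 and DESeq2 without their roles, and no source used here gives the aligner or annotation. Identifiers were matched without version to GENCODE release 29, and 28796 (99.6%) matched. FPKM were summed per gene, and 10475 genes averaging 1 FPKM or more were tested on log2(FPKM + 1) with limma 3.58.1 (R 4.3.3), empirical Bayes trend, two-sided, Benjamini-Hochberg adjusted over all tested genes, threshold 0.05. Fold changes on this scale understate those of low genes. Depth is unknown. FPM values are FPKM times annotated, not effective, transcript length in kilobases. Length trends were lowess fits over all tested genes. The test was checked on simulated data, where it recovered 37.3% of genes changed 1.5-fold, 71.6% at 2-fold and 89.4% at 4-fold. Of its 136 calls 4 were false. The member median is smaller than any change simulated, so few calls among the members say little about them.

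The members and lists were chosen with earlier results of these data known. Values in every library are given for members past the threshold, the 5 most negative and 5 most positive, the P stalk, RPL5, RPL11 and each paralogue copy with its main copy, and outside the members for ALKBH3, FAU, RACK1 and the 2 smallest adjusted p of each list. The values of 2 genes under this rule are not reported here. Alternatives were other pseudocounts, filters, scalings, transcript sums, array weights, a replicate block and single libraries left out.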

Additional observations from a re-analysis of the deposited data

How the results depend on the processing

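The direction of the member median held under every alternative run. Its size moved with scaling and length: -0.15 with quantile normalization (-0.15 large, -0.16 small), -0.14 with the length trend removed (-0.14 large, -0.14 small) and -0.14 with length and GC trends removed (-0.15 large, -0.13 small). The log2 ratio of the FPKM sums was -0.11 with quantile normalization. The length-corrected median of -0.14 compares with -0.32 as FPM. The large-minus-small difference of medians was 0.027 and ran from -0.019 to 0.044, with both signs. Leaving out 1 library gave member medians from -0.39 to -0.26, large-subunit medians from -0.37 to -0.25, small-subunit medians from -0.40 to -0.25 and log2 ratios of the sums from -0.39 to -0.26.

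Calls were less stable. Members called numbered 1 as reported, 2 with quantile normalization (RPL13 and RPS21), 0 with equal totals, 2 with length and GC trends removed and 2 as FPM (RPL15 and RPLP1 in both), 14 with array weights, where 1.53% of all genes were called lower, and 0 with the replicate block. Leaving out 1 library gave 0 or 1 (RPS10 without NC replicate 2, RPL7A without shALKBH3 replicate 1). Over all genes 184 were called, and 105 with the most abundant transcript, 480 with array weights, 20 with the replicate block and 48 to 109 with 1 library left out. With equal totals, which shifted the median of all genes to 0.072, 13.6% of the calls were lower, against 27.2% as reported. ALKBH3 kept its direction but missed the threshold with its most abundant transcript (log2 -1.24, adjusted p = 0.063) and with the replicate block (-1.24, 0.098), and the log2 difference ran from -1.32 to -1.17 with 1 library left out, with an adjusted p of 0.051 without NC replicate 1. The cause of these changes was not tested.

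Differences near 0 changed sign. With quantile normalization RPL17 was 0.18, RPL7 0.14, RPL9 0.10, RPL22 0.035 and RPL11 0.017. With the length trend removed RPL9 was 0.16, RPS15A 0.14, RPL17 0.10, RPL7 0.057, RPL26L1 0.047, RPL36AL 0.042 and RPL26 0.016. With length and GC trends removed RPS15A was 0.12, RPL9 0.11, RPL17 0.065, RPL26L1 0.021 and RPL7 0.016. RPL9 was 0.053 with equal totals, 0.046 with its most abundant transcript and 0.056 with array weights, and RPL39L 0.0029 with its most abundant transcript. RPS19 was -0.33 as FPM and -0.017 with array weights. With 1 library left out RPL17 ran from -0.26 to 0.018, RPL7 from -0.16 to 0.029, RPL9 from -0.14 to 0.097 and RPS19 from -0.080 to 0.997.

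Same-numbered libraries of the 2 groups did not deviate together (r of -0.088, 0.075 and -0.012 for numbers 1, 2 and 3), and not every library correlated best with its own number, so the numbers were not taken to pair the libraries. FPM, and length with GC for the length-corrected median, were added after the data were seen. Depth is unknown, so what it limits cannot be stated, and levels divided among transcripts or read-through genes are the least certain.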

Other observations

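Read-through genes join a member to its neighbour and were counted apart from the members. RPL36A-HNRNPH2 was at 11.8, 21.8 and 101 FPKM in shALKBH3, against 11.4, 2.24 and 15.3 FPKM in NC, so shALKBH3 replicate 3 stood far above the other 5 libraries, and the log2 difference was 1.84 (limma adjusted p = 0.37). RPL36A itself was not high in that library (366 FPKM, the lowest of the 6). RPL17-C18orf32 was at 23.8, 29.1 and 24.5 FPKM in shALKBH3, against 28.96, 26.98 and 25.1 FPKM in NC, with overlapping groups (log2 -0.066, adjusted p = 0.77). These genes were chosen for mention because they share sequence with members, after their values were seen.

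RPS3A, a protein of the small subunit, had the widest swing between transcripts of the 83 members. Its most abundant transcript held between 27.7% and 89.6% of the gene's FPKM. The gene sum was 649, 779 and 724 FPKM in shALKBH3, against 824, 634 and 970.3 FPKM in NC, with overlapping groups (log2 -0.16, adjusted p = 0.65).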
